A study of Homo sapiens with 4 samples.

Results

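Trimethylation of lysine 4 on histone H3 (H3K4me3) was mapped by chromatin immunoprecipitation and sequencing in MCF10A, an immortalised human mammary epithelial line that does not form tumours. The peaks described here are all those of the H3K4me3 library on chromosomes 1 to 22. These are 65793 of the 67904 peaks in its deposited list, and no peak was chosen by its strength. All 4 libraries of the study came from MCF10A cells in mammary epithelial growth medium with cholera toxin at 100 ng/ml, and the labels name no untreated or otherwise treated group. Besides H3K4me3, antibodies recognised dimethylation of lysine 79 (H3K79me2) and trimethylation of lysine 27 (H3K27me3). The input DNA library, made without antibody, has no peak list analysed here. Each mark had 1 library, so no value below has a replicate error and no test was made between conditions. Read depth is unknown from peak lists.

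H3K4me3 is written by the COMPASS family of methyltransferases (the SET1 and MLL enzymes), which are drawn to unmethylated CpG islands and to initiating RNA polymerase II. It marks the nucleosomes around the start sites of transcribed and poised genes, and domains that extend far into the gene body are known at genes of cell identity and at highly transcribed genes. H3K79me2, written by DOT1L, lies over the first part of transcribed genes, and H3K27me3, written by Polycomb repressive complex 2, lies over silenced developmental genes.

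To show what the DNA under H3K4me3 looked like, the stretch of 200 bases before 1 start site is given for 1 gene of each class of peak width, and for 1 gene whose start had no peak. The genes come from the lists described further on, each with the widest peak of its class over the start. Sequences are those of RefSeq for GRCh38.p14, 5′ to 3′ on the strand of the gene, and capitals mark CpG dinucleotides. TFAP2A encodes an epithelial transcription factor (chr6:10419660-10419859 on the minus strand), and its start lay under a peak of 21778 bp. RPS18 encodes a protein of the small ribosomal subunit (chr6:33271875-33272074 on the plus strand, peak of 7891 bp). CCNA2 encodes cyclin A2 (chr4:121823884-121824083 on the minus strand, 3982 bp), and GUSB the lysosomal enzyme beta-glucuronidase (chr7:65982214-65982413 on the minus strand, 1997 bp). CLDN3 encodes a claudin of tight junctions (chr7:73770271-73770470 on the minus strand, 983 bp). FLT1 encodes a receptor of vascular endothelial growth factor (chr13:28495129-28495328 on the minus strand, 417 bp), and AHSG a plasma protein made by liver (chr3:186612860-186613059 on the plus strand, no peak).
TFAP2A: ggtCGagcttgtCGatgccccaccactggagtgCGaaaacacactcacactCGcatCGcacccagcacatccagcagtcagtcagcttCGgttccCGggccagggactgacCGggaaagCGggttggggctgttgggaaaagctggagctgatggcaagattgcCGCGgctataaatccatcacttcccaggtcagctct
RPS18: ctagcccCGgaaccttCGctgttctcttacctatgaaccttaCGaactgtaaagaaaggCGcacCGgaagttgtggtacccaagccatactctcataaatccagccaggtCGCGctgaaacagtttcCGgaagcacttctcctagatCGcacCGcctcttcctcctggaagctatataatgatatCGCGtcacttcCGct
CCNA2: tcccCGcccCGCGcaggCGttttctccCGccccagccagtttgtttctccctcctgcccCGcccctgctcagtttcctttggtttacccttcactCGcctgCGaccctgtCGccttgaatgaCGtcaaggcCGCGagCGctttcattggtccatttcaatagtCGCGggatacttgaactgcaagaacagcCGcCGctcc
GUSB: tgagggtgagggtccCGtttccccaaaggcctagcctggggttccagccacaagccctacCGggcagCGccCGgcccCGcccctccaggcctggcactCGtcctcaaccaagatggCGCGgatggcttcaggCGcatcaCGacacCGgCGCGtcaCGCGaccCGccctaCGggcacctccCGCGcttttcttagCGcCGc
CLDN3: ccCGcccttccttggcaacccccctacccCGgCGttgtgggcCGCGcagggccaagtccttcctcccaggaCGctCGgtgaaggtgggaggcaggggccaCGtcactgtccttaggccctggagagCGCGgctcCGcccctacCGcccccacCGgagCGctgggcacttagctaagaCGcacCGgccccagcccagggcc
FLT1: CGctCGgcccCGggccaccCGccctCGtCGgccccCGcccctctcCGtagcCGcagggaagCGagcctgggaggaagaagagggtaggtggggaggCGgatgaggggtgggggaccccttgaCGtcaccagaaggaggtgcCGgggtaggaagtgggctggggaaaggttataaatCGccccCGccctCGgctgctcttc
AHSG: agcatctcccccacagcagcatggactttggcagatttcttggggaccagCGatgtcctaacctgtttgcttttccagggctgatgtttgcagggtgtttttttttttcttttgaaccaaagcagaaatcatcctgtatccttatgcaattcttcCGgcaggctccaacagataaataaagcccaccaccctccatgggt

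The 6 starts under a peak had 11, 13, 17, 21, 16 and 16 CpG dinucleotides in these bases, in the order printed, and the start of AHSG without a peak had 2. The number did not follow the width of the peak among these genes.

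The list consisted mostly of narrow peaks, while most of the covered DNA lay in wide ones. Peak width ran from 170 bp, the value of 3138 peaks, to 41775 bp, with a median of 851 bp. The median was 1703.5 bp among peaks with a deposited −log10 q of at least 1.3, a q-value of about 0.05. The middle 80% of peaks lay between 228 and 3609 bp. Together the peaks covered 97.0 Mb, or 3.37% of the 2874 Mb spanned by these chromosomes. Peaks under 1000 bp were 37064 in number (56.3%) and held 19.5% of the covered bases. The 14900 peaks of 2000 bp or more (22.6%) held 60.6%, and 654 peaks reached 8000 bp.

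Width went with the strength that the authors deposited for each peak. This fold is the peak caller's own ratio over its background and was used to describe the peaks, not to choose them. Width classes include their lower bound and not their upper one. The median fold was 2.17 for peaks under 500 bp, 2.28 from 500 to 1000 bp and 2.98 from 1000 to 2000 bp. It was 13.4 from 2000 to 4000 bp, 15.8 from 4000 to 8000 bp and 14.4 at 8000 bp or more. With all positions together, median fold thus stepped up at 2000 bp and was similar beyond it. The rise came at different widths in the 3 position classes defined below. At gene ends the median was 3.06 from 500 to 1000 bp, 9.997 from 1000 to 2000 bp and 17.4 from 2000 to 4000 bp. Inside genes it was 2.75 from 1000 to 2000 bp, 4.57 from 2000 to 4000 bp and 15.04 from 4000 to 8000 bp. Outside, the same classes had 2.91, 4.08 and 8.39. The share of peaks with −log10 q of at least 1.3 was 17.6%, 31.8%, 64.8%, 92.0%, 99.1% and 100% from the narrowest class to the widest. Over the whole list it was 48.9%, so that much of what is said of narrow peaks concerns peaks that passed the caller's p threshold of 0.05 but not this q.

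Peaks were placed by their midpoint: at a gene end (within 1000 bp of either end of a protein-coding gene record), inside a record beyond that, or outside. Gene ends held 9075 midpoints (13.8%) in 2.41% of the chromosome length, 5.71 times their share of length. The gene-end share was 25.3%, 40.7% and 45.8% among peaks with −log10 q of at least 1.3, with −log10 q of at least 5 and with fold of at least 5. Inside records lay 31365 (47.7%, against 40.7% of length), and outside lay 25353 (38.5%, against 56.9%). The gene table has no strand, so this class mixes the start of a gene with its other end.

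Position changed with width. Of peaks under 500 bp, 3.12% lay at a gene end and 49.8% outside, a distribution near that of length. The gene-end share was 4.97% from 500 to 1000 bp, 12.4% from 1000 to 2000 bp and 43.9% from 2000 to 4000 bp. It was 33.5% and 15.4% in the widest 2 classes, where 58.2% and 77.8% of midpoints lay inside a gene. The widest peaks were nonetheless the ones most often over a start site. On the 21 chromosomes with start sites in the RefSeq promoter table (all but chromosome 8), 0.761% of peaks under 500 bp covered a listed start, and 2.59%, 10.5%, 47.8%, 73.3% and 82.3% did so in the successive classes. A peak over the starts of 2 or more genes was found in 4.19% of the peaks of 2000 to 4000 bp, 13.7% of those of 4000 to 8000 bp and 16.9% of the widest.

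**Figure D1:**
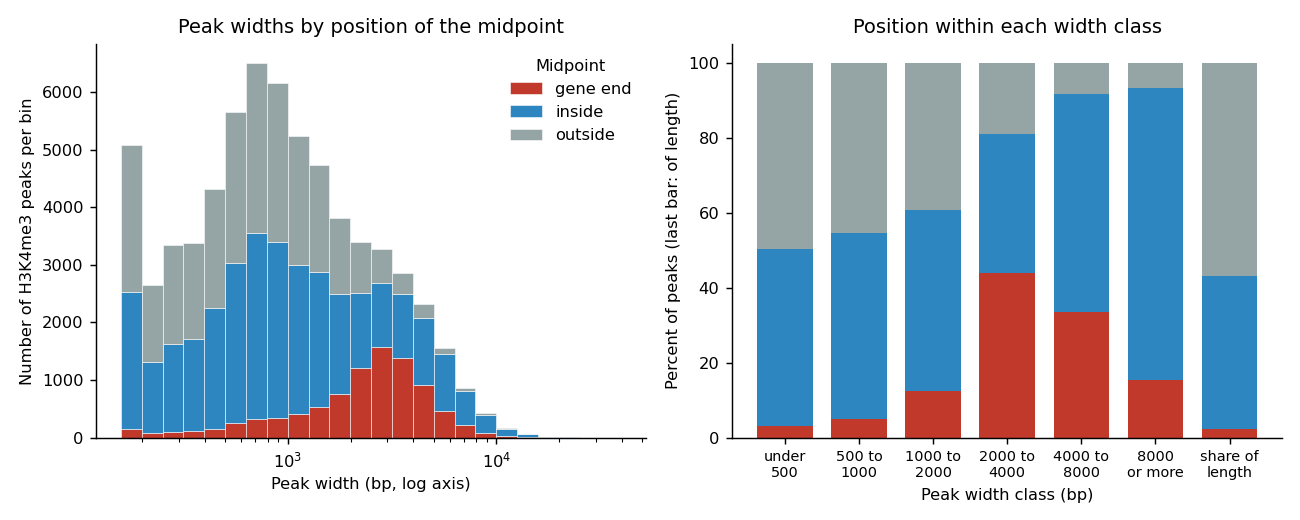
Left, number of H3K4me3 peaks by width (bp, log axis) in bins of equal log width, coloured by the position of the midpoint; right, percent of peaks at a gene end, inside and outside protein-coding records in each width class, with the same split of chromosome length as the last bar. Peaks at gene ends are most frequent from 2000 to 4000 bp (43.9%), and the widest peaks have 77.8% of midpoints inside genes.

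The listed starts show how the peaks sit on a gene. Of 15101 protein-coding genes with a listed start, 10345 (68.5%) had the first one, nearest to the record's 5′ end, under a peak. These genes are 82.0% of the 18411 protein-coding genes on those 21 chromosomes. For the 8021 of them whose peak covered the start of no other gene, the peak reached a median of 903 bp upstream and 2171 bp downstream, in the direction of transcription. It reached further downstream in 6935 of the 8021 (86.5%). Among 3904 genes with no end of another protein-coding gene within 20000 bp, a condition added after seeing the data, the medians were 887 bp and 2389 bp.

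From 500 bp upward, wider peaks were wider mainly on the downstream side. Median reach upstream and downstream was 865 and 1961 bp for peaks of 2000 to 4000 bp. It was 1302 and 3696 bp for peaks of 4000 to 8000 bp, and 2037.5 and 7318.5 bp for those of 8000 bp or more. The ratio of the medians was 1.28 for peaks of 500 to 1000 bp, 1.77, 2.27 and 2.84 in the next classes and 3.59 in the widest. Peaks under 500 bp, over the starts of 92 genes, stood outside this order with 1.96. Since the downstream side grew this way, the midpoint of a very wide peak moved more than 1000 bp into the gene, which is how such a peak counts as inside while covering a start.

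Around the starts the share of genes under an H3K4me3 peak was highest 100 bp downstream, at 68.6%. It was 37.1% at 1000 bp upstream and 61.4% at 1000 bp downstream, 16.3% and 39.6% at 2000 bp, and 6.98% and 10.6% at 5000 bp. H3K79me2 was highest further into the gene, at 1100 bp downstream with 52.4%, and was 40.8% at 5000 bp, where H3K4me3 had nearly returned to its far level. At the start itself H3K79me2 was at 22.2%, below both its 26.3% at 1000 bp upstream and its 52.2% at 1000 bp downstream. H3K27me3 was between 2.76% and 4.65% at these distances. The strands of listed starts orient these values, and no peak was used for the orientation.

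**Figure D2:**
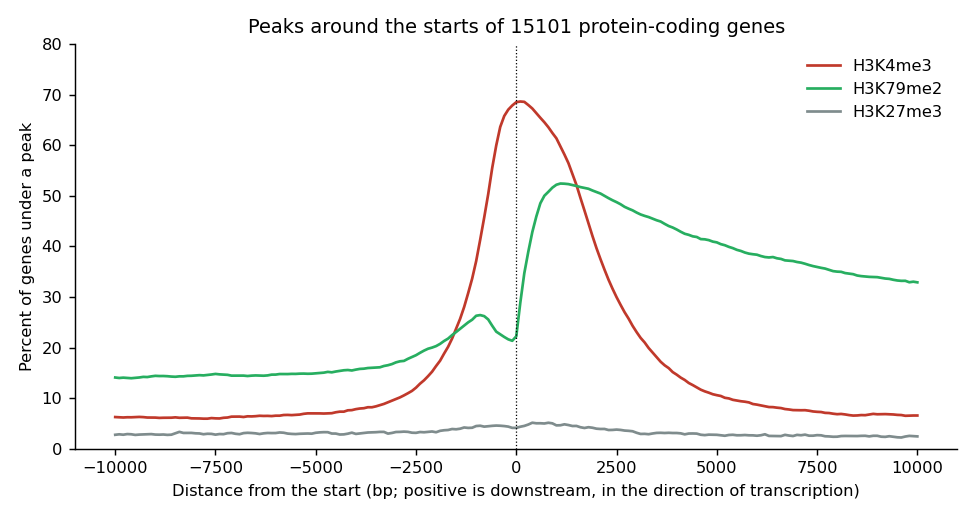
Percent of 15101 protein-coding genes under a peak of each mark (vertical axis) against the distance from the first listed start (bp, positive in the direction of transcription). H3K4me3 is highest at 100 bp (68.6%) with a longer downstream side, and H3K79me2 is highest at 1100 bp (52.4%) after lower values at the start (22.2%).

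The base composition of promoters differed between starts with and without a peak. CpG content was measured as the ratio of observed CpG dinucleotides to the number that the C and G content of the 300 bases from 250 before to 50 after the start would give. Its median was 0.273 over 4756 starts without a peak and 0.849 over the 10345 under one. By the width of the peak over the start, the medians were 0.563, 0.728, 0.791, 0.845, 0.880 and 0.884 from the narrowest class to the widest, so that the ratio differed most between no peak and a narrow one and hardly beyond 4000 bp. Of 9979 promoters with a ratio of 0.6 or more, 90.3% lay under a peak and 78.2% under one of at least 2000 bp. Of 5122 with a lower ratio, 26.0% lay under a peak. The table of starts has no entry for 4025 of the 19126 protein-coding genes, and these had a peak at an end less often (61.3% against 70.5%).

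Short sequence words were counted on both strands of the same promoters. TATAAA, the core of the TATA box, was present in 9.83% of all promoters, in 19.2% of those without a peak and in 5.52% of those under one. Among peaks its share was lowest from 2000 to 4000 bp (4.38%) and was 10.9% at 8000 bp or more. CCGGAAG, a word bound by ETS factors, was in 14.3% of all promoters, in 2.80% without a peak and in 22.3% under peaks of 2000 to 4000 bp, 21.9% at 4000 to 8000 bp and 16.7% at 8000 bp or more. GGGCGG, the core of the word bound by SP1, was in 58.7% of all promoters, 27.4% without a peak and 73.1% under one. The CCAAT word bound by NF-Y was at 34.6% without a peak and 36.7% under one. TGANTCA, a pattern that includes the words of AP-1 factors and allows any middle base, was at 8.81% and 4.19%. Words made of C and G move with the CpG content of these promoters, and that share was not separated here. Median GC content was 52.7% in promoters without a peak and 66% under one. Its part in the TATAAA and TGANTCA shares was not separated either. A match is a run of letters and not a measured binding site.

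Spacing was uneven. Between neighbouring peaks of a chromosome the gap ran from 681 bp, found 10 times, to 18.2 Mb on chromosome 1, with a median of 16419 bp over 65771 gaps. The median gap was 32869 bp between peaks with −log10 q of at least 1.3. Gaps under 10000 bp made up 37.9% and gaps over 100000 bp 9.47%. With peaks linked across gaps of up to 3000 bp, 18549 peaks (28.2%) stood in runs of 2 or more, of which 472 runs held 4 or more. Peaks inside genes stood closest to another peak, with a median distance of 5744 bp to the nearest, against 8087 bp for those at gene ends and 9447 bp for those outside. Peaks of every width class lay near another peak of at least 2000 bp more often than length would give, the narrowest class least. Within 5000 bp of such a peak lay 11.3%, 12.7%, 15.2%, 16.6%, 15.9% and 21.9% from the narrowest class to the widest. Of the length outside such peaks, 4.84% lies within that distance.

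Coordinates here and below are those of the deposited list, on hg38, counted from 1. The run with most peaks was on chromosome 4 (131723298 to 131753314), where 14 peaks of 170 to 1639 bp and 2.23- to 4.49-fold stood in 30017 bp with 2 lncRNA records and no protein-coding gene. The next, on chromosome 17 (43238144 to 43301484), had 13 peaks with a median width of 2991 bp. It spans a row of 12 small nuclear RNA records of 191 to 192 bp, and all 12 lay under a peak, shared among 10 peaks. ZBTB16, the gene of a zinc finger repressor, held 10 peaks in 30737 bp, from 170 to 7658 bp wide. A stretch of 22947 bp on chromosome 19 (37278847 to 37301793) with no gene record held 10 peaks, of which 1 had a −log10 q of at least 1.3. Runs of 9 peaks lay at PXN, the gene of the focal adhesion protein paxillin, and at PPP2R2A, a regulatory subunit gene of protein phosphatase 2A.

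Chromosomes differed in number and width of peaks, and gene-rich chromosomes had more and wider ones. Density ran from 18.6 peaks per Mb on chromosome 18 and 19.5 on chromosome 4 to 35.3 on chromosome 17 and 39.0 on chromosome 19. Chromosome 19 had 1.97 times the density of chromosome 13, and 3.17 times among peaks with −log10 q of at least 1.3. Stretches over 1 Mb without a peak of any mark, 107 Mb in all, were left out of the lengths. Median width was lowest on chromosome 13 (724.5 bp) and highest on chromosome 19 (1269.5 bp), and the share covered was 2.46% and 7.01%. Chromosome 19 has 24.8 protein-coding genes per Mb and chromosome 13 has 3.44. The gene-end share of midpoints was 33.6% on chromosome 19 and 8.57% on chromosome 13, and the outside share was 25.1% and 48.6%.

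Wide peaks followed gene density more closely than narrow ones did. Across the 22 chromosomes, Pearson's r of genes per Mb was 0.971 with peaks of 2000 bp or more per Mb (Spearman's rho 0.974) and 0.730 with peaks under 1000 bp per Mb (rho 0.709). Without chromosomes 17 and 19 the values were 0.944 and 0.655. All points come from 1 library, so these describe this list. Wide peaks per gene ran the other way, from 1.03 on chromosome 18 and 0.925 on chromosome 10 to 0.589 on chromosome 11 and 0.560 on chromosome 19 (r of −0.772). Chromosome 11, with many olfactory receptor genes, and chromosome 21, with many keratin-associated protein genes, had the smallest shares of genes with a peak at an end, 58.3% and 57.7%, against 68.6% of all genes.

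**Figure D3:**
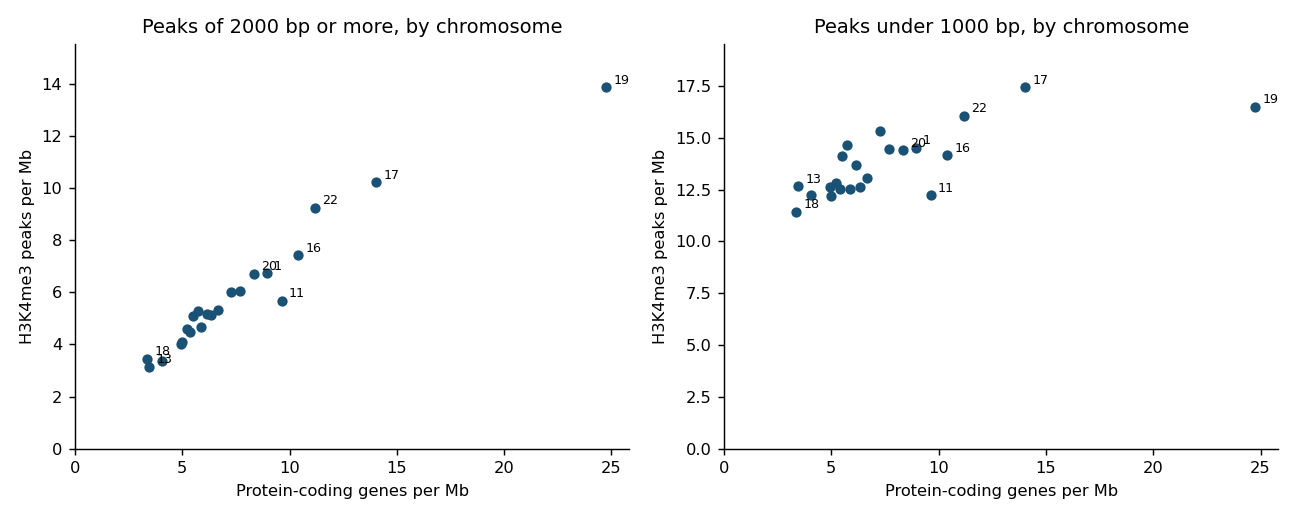
H3K4me3 peaks per Mb (vertical axes, from 0) of at least 2000 bp (left) and under 1000 bp (right) against protein-coding genes per Mb, 1 point per chromosome, with chromosomes 13, 18 and those of more than 8 genes per Mb numbered. Wide peaks lie near a line (r of 0.971) and narrow peaks span a smaller range.

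Windows of 1 Mb gave the same order at a finer scale. The mean number of peaks was 7.41 in 380 windows without a protein-coding gene, 17.1 with 1 to 4 genes, 28.0 with 5 to 9, 35.4 with 10 to 19 and 46.4 in 215 windows with 20 or more. Peaks of 2000 bp or more went from 0.313 to 16.96 per window over these classes and peaks under 1000 bp from 6.03 to 19.4. Median width was 525 bp in windows without a gene, where 92.4% of midpoints lay outside records, and 1274 bp in the richest. The density in the richest windows was 6.27 times that in windows without a gene, and 12.3 times among peaks with −log10 q of at least 1.3. Of windows without a gene, 79.5% had no peak of 2000 bp or more.

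The window with most peaks was not gene-rich in proportion. It lay on chromosome 20 from 50 to 51 Mb and held 94 peaks for 12 protein-coding genes, while the windows on either side held 50 and 32. Its median width was 789 bp, 20 peaks reached 2000 bp and 50 midpoints lay outside records. The genes with the widest peaks there were UBE2V1, of a ubiquitin-conjugating enzyme variant (8426 bp), the polarity gene PARD6B (8054 bp), and DPM1 and MOCS3, which shared a peak of 7063 bp. The H3K79me2 and H3K27me3 lists had 61 and 19 peaks in this window, against 73 and 76 in the window before it and 41 and 91 in the one after. The copy number of this region in these cells was not tested.

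Next came chromosome 6 from 26 to 27 and from 27 to 28 Mb (80 peaks each) and from 28 to 29 Mb (79 peaks), and chromosome 19 from 1 to 2 Mb (79 peaks). The first pair held replication-dependent histone genes, with peaks of 9823 bp shared by H2AC6 and H2BC4, 6978 bp shared by H2AC7 and H2BC7, and 10173 bp shared by H2AC13, H2AC14, H2BC13 and H2BC14. The third held ZNF165 (5816 bp), TRIM27 (5548 bp), ZSCAN12 (4913 bp) and ZSCAN26 (3850 bp). On chromosome 19 the widest were at SBNO2 (10209 bp), the kinase gene STK11 (7607 bp), MIDN (6841 bp) and ATP5F1D (6381 bp).

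Most of the peaks in the chromosome 6 windows were outside protein-coding records, 45, 64 and 56, and many of them lay over transfer RNA (tRNA) genes. These windows hold 44, 56 and 44 tRNA records, of which 33, 44 and 39 lay under a peak. tRNA genes are short genes transcribed by RNA polymerase III from promoters inside the gene. Over all chromosomes 329 of 439 tRNA records (74.9%) lay under an H3K4me3 peak. Of the 351 away from protein-coding genes and their ends, 257 (73.2%) did so, where peaks covered 1.57% of the length. The 181 peaks involved had a median width of 2208 bp and a median fold of 8.85, and 156 of them had a −log10 q of at least 1.3. Of 274 tRNA records at least 10000 bp from any end of a protein-coding gene and outside their records, 193 (70.4%) were under a peak.

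The tRNA genes were also read for H3K79me2 and H3K27me3. Of the 257 under a peak and away from protein-coding genes, 0 lay in an H3K79me2 peak, a mark that covers 1.48% of the length outside protein-coding records. At the first listed starts of protein-coding genes, with or without an H3K4me3 peak, H3K79me2 was at 22.2% and rose further into the gene. H3K27me3 covered 1.42% of the 351 tRNA records. Coverage by chromosome was 120 of 155 on chromosome 6, 67 of 98 on chromosome 1, 31 of 33 on chromosome 17 and 17 of 18 on chromosome 5, against 3 of 22 on chromosome 7. By the amino acid in the gene symbol, the cysteine genes stood low with 6 of 29, while 13 of 13 aspartate, 7 of 7 tryptophan and 29 of 32 leucine genes were under a peak. Both splits are of the same tRNA records, and the overlap of the chromosome 7 and cysteine groups was not counted. tRNA genes exist in near-identical copies, and the sources used here do not say how reads that map to several places were counted.

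Records of other gene types away from protein-coding genes had the midpoint under a peak less often than tRNA genes. The share was 44.3% of 106 small nuclear RNA records, 33.3% of 45 ribosomal RNA records (all under 1 peak), 14.4% of 576 microRNA records and 9.43% of 530 small nucleolar RNA records. It was 3.40% of 9246 pseudogenes, 3.18% of 1005 transcribed pseudogenes and 4.88% of 12332 lncRNA records. Of the lncRNA records 24.9% had an end or the midpoint under a peak. From the side of the peaks, 7.64% of midpoints outside protein-coding records lay within 1000 bp of a lncRNA end, which takes 2.66% of that length. The share was 4.88% for those under 500 bp, 17.2% from 2000 to 4000 bp, 21.4% from 4000 to 8000 bp and 9.09% (4 of 44) at 8000 bp or more.

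The other 2 marks also changed with H3K4me3 width. Of peaks under 500 bp, 20.7% had the midpoint in an H3K79me2 peak, and the share was 21.1% and 21.9% in the next classes, 51.7% from 2000 to 4000 bp, 81.8% from 4000 to 8000 bp and 91.9% at 8000 bp or more. Under 500 bp it was 11.9% among peaks with −log10 q of at least 1.3. H3K79me2 covers 10.6% of the chromosome length, 23.3% within protein-coding records and 1.48% outside them. Inside genes it was found at 39.9% of H3K4me3 peaks under 500 bp, 57.7% of those from 2000 to 4000 bp and 94.9% of the widest. Outside it was found at 3.42%, 15.1% and 86.4% of the same classes.

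H3K27me3 was most frequent at narrow peaks on gene ends. It held 9.61% of the midpoints at gene ends under 500 bp, 12.4% from 500 to 1000 bp and 13.4% from 1000 to 2000 bp, and then 2.34% from 2000 to 4000 bp. H3K79me2 held 7.20%, 3.72% and 11.1% of the same 3 narrow classes and 62.5% of the class from 2000 to 4000 bp, so that both marks changed at the same width. Away from gene ends H3K27me3 held between 0% and 2.49% of the midpoints in every class, below its 3.44% of the chromosome length. That length is split among 353923 H3K27me3 peaks, so a midpoint can fall between short neighbouring peaks. Overlap by any base was not counted for this mark, and these shares do not give the full extent of overlap.

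**Figure D4:**
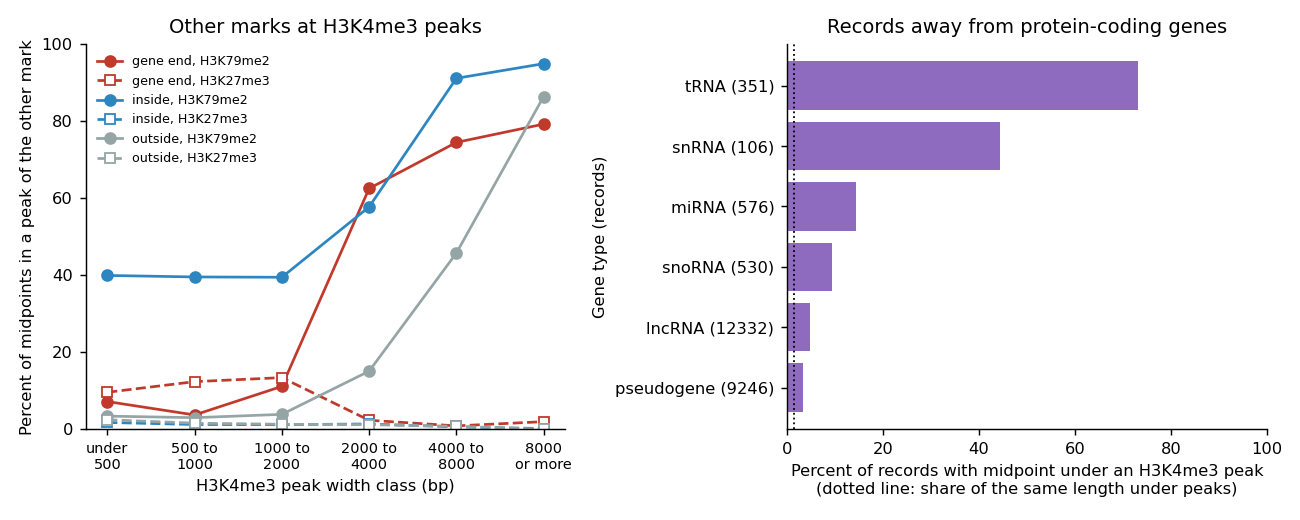
Left, percent of H3K4me3 midpoints that lie in a peak of H3K79me2 (filled circles) or H3K27me3 (open squares) by width class, for peaks at gene ends, inside and outside protein-coding records; right, percent of records of 6 gene types, away from protein-coding genes, with the midpoint under an H3K4me3 peak, with the covered share of the same length as a dotted line (1.57%). At gene ends H3K79me2 goes from 11.1% at 1000 to 2000 bp to 62.5% at 2000 to 4000 bp, and tRNA genes stand highest among the gene types (73.2%).

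The widest peaks lay over both noncoding and protein-coding genes. The widest of all, 41775 bp on chromosome 1 (228608250 to 228650024, 6.31-fold), spans the array of 5S ribosomal RNA genes, with 17 ribosomal RNA records of 121 bp under it, and also covers the listed start of the GTPase gene RHOU near its far end. H3K79me2 covered 4.12% of it. The second, 39607 bp on chromosome 22 (46051957 to 46091563, 16.4-fold), lies over the host gene of let-7b, MIRLET7BHG, and over PRR34 and LINC02939, inside the predicted gene LOC124905135. The third, 25639 bp on chromosome 11 (65415911 to 65441549, 12.8-fold), lies over NEAT1, the lncRNA that builds paraspeckles. H3K79me2 covered 96.2% and 98.7% of these.

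Among protein-coding genes other than RHOU and LOC124905135, the widest were those of the amino acid transporter SLC7A5 (22154 bp, 11.2-fold), the beta-catenin cofactor BCL9L (21906 bp, 15.97-fold) and TFAP2A (21778 bp, 18.1-fold). Then came the receptor gene EPHA2 (20917 bp), the laminin gene LAMA5 (20665 bp), TIPARP (20483 bp), RTN4 (18939 bp) and NFIB (18430 bp). The peaks of RTN4 and NFIB had their midpoints 72041 and 217131 bp from the nearest record end and covered 6 and 7 listed starts, which lie that far inside the record. Among peaks with the midpoint outside protein-coding records, those at LINC-PINT (19655 bp) and at the DLEU2 and DLEU1 locus (17441 bp) followed. A peak of 15571 bp also had its midpoint outside, 1336 bp from the end of the ferritin gene FTH1, and covered ends of FTH1 and BEST1. H3K79me2 covered 64.0% to 96.2% of the peaks at SLC7A5, BCL9L, TFAP2A, EPHA2, LAMA5, TIPARP, RTN4 and NFIB, and H3K27me3 at most 1.79%.

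The gene with the widest peak at an end was also taken by chromosome. These were RHOU, NFE2L2 (17181 bp, the oxidative stress regulator), TIPARP, AREG (14654 bp, the EGFR ligand amphiregulin), NPM1 (15336 bp) and TFAP2A on chromosomes 1 to 6. On chromosomes 7 to 11 they were KMT2E (15573 bp), TRPS1 (13433 bp), LOC124900275 (13272 bp), HNRNPF (16773 bp) and BCL9L. On chromosomes 13 to 18 they were IRS2 (14905 bp), KLHL28 (12008 bp, shared with TOGARAM1), ANXA2 (13512 bp), SLC7A5, TNS4 (17887 bp) and the TGF-beta inhibitor gene SMAD7 (11235 bp). On chromosomes 20 to 22 they were LAMA5, DYRK1A (11436 bp) and CLTCL1 (10770 bp, shared with SLC25A1).

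Genes were then read by list. A gene counted as called where at least 25% of the stretch from 1000 bp before to 1000 bp after either record end lay in peaks, and its width is that of the widest peak there. Of 19126 protein-coding genes 13114 (68.6%) were called, with a median width of 3526.5 bp (quartiles 2383 and 5004 bp), and 40.7% of the called had a peak of 4000 bp or more. A peak can serve several genes, and 29.8% of the called shared theirs with the end of another gene. A call can lie at either record end, so its width need not be that of a peak over the start. The called list genes KRT8, PDGFRB, MAP2, RBFOX3, TDRD1 and SOHLH1 had no listed start under a peak. Of all genes with a listed start, 10698 of 15101 had one under a peak. By list this was 11 of 12 basal, 9 of 16 luminal, 10 of 13 epithelial factor and 14 of 15 early response genes. It was 22 of 22 cell cycle, 16 of 16 housekeeping, 18 of 18 ribosomal and 7 of 8 mesenchymal genes. For the others it was 4 of 9 immune, 3 of 7 endothelial, 5 of 10 neuronal, 10 of 22 developmental, 2 of 7 liver and 1 of 12 germ cell genes. The lists were chosen with earlier results of these data known, and the shares below are descriptions beside the 68.6% of all genes.

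Basal epithelial genes, which mark the layer that MCF10A resembles, were called in 22 of 23 with a median width of 6513 bp, and 18 of the 22 had a peak of 4000 bp or more. The integrin gene ITGA3 (12151 bp), the basal keratin gene KRT5 (11440 bp), the laminin gene LAMB3 (11363 bp) and the caveolin gene CAV1 (10661 bp) had the widest, and KRT6B (3017 bp) and LAMA3 (1703 bp) the narrowest. TP63, the basal master regulator, had no call at an end and a peak of 5802 bp inside its record. Of 22 luminal genes 12 were called, with a median of 3979 bp. KRT7 (10059 bp), XBP1 (8322 bp), MUC1 (4798 bp, shared with THBS3) and KRT8 (4781 bp, shared with KRT18) were widest, and CLDN3 (983 bp) and the oestrogen receptor gene ESR1 (504 bp, 1.84-fold) narrowest. Peaks covered 25.2% of the window at ESR1, just over the bound of 25%, and its peak had a −log10 q of 0.00168. That peak lies beyond the higher-coordinate end of the record, and ESR1 had a listed start under a peak. Of the 12 called luminal genes, 5 shared their peak with the end of another gene, among them ERBB3 with PA2G4, against 0 of the 22 basal genes. Among the luminal genes not called, the luminal regulator gene GATA3 had a listed start under a peak and a peak of 8161 bp (18.6-fold) inside its record, and EHF had one of 3121 bp inside.

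Of 22 epithelial transcription factor genes 18 were called, with a median of 6423 bp. TFAP2A, KLF5 (12925 bp), KLF6 (11707 bp) and HES1 (10268 bp) led, and ZNF750 (1268 bp) and OVOL1 (1080 bp) came last, with folds of 1.95 and 2.34. EHF, GRHL2 and TP63 were not called and had peaks inside the record, of 3121, 1056 and 5802 bp, while ELF3 had none. Genes of AP-1 and the early response to growth signals were called in 19 of 20 and had the highest median among the lists, 7536 bp. DUSP4 (10402 bp), FOSL2 (10286 bp), DUSP5 (9611 bp) and PHLDA1 (9513 bp) led, and the narrowest, EGR2 (4178 bp) and FOSB (3605 bp), were still above the median of all genes. ATF3 was not called, and inside its record lay a peak of 4973 bp (18.9-fold).

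Genes of dividing and of all cells were called without exception, at widths that differed by list. The 28 cell cycle genes had a median of 4463 bp, with CDKN1B (12939 bp), CDK1 (11063 bp), CDK6 (9031 bp) and CCND2 (8473 bp) widest and CDK4 (2656 bp) and MCM5 (2443 bp) narrowest. The 20 housekeeping genes had a median of 7255 bp. YWHAZ (11983 bp), RPLP0 (10524 bp) and EEF1A1 (10114 bp) were among the widest, and PSMB4 (2887 bp) and GUSB (1997 bp) were the narrowest. The 24 genes of cytosolic ribosomal proteins had a median of 6957 bp and the narrowest spread of these lists, from RPLP1 (4956 bp) and RPL19 (4192 bp) to RPL8 (8351 bp), RPL5 (8821 bp), RPL4 (8886 bp) and RPLP0. Of the 24, all had at least 4000 bp, while 40.7% of all called genes did.

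Mesenchymal genes were called in 13 of 18, with a median of 4769 bp. FAP (6056 bp, 4.85-fold), SNAI2 (5940 bp), VIM (5722 bp) and ZEB2 (5050 bp) were widest, and the platelet-derived growth factor receptor genes PDGFRA (1208 bp) and PDGFRB (1125 bp, shared with CSF1R) narrowest. COL1A2, COL3A1, DCN, LUM and THY1 were not called. DCN and THY1 had peaks inside of 3919 and 860 bp.

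Genes of cell types foreign to this culture had fewer calls and, where called, mostly narrow peaks. Immune cell genes were called in 5 of 14, with a median of 1620 bp. The widest among them, 9291 bp (14.4-fold) at the macrophage gene CD68, was shared with SOX15, FXR2 and MPDU1. CD8A (1620 bp, 13.2-fold), CD14 (1620 bp, 6.77-fold), SPI1 (1190 bp, 7.03-fold) and CSF1R (1125 bp, 3.31-fold) followed. Endothelial genes were called in 3 of 12: ROBO4 (5372 bp, 2.33-fold), ESAM (1543 bp, 11.2-fold) and KDR (1525 bp, 15.5-fold). Of those not called, PECAM1, TEK and ERG had peaks of 3078, 3206 and 2412 bp inside the record, at 2.19-, 2.17- and 2.87-fold. EMCN, VWF and FLT1 had peaks of 1287, 1674 and 821 bp inside, at 2.13-, 4.02- and 4.80-fold. FLT1 also had a listed start under a peak. Liver genes were called in 4 of 12: TF (3131 bp, 18.1-fold, shared with TOPBP1), TAT (1669 bp, 13.4-fold), SERPINA1 (891 bp, 1.93-fold) and APOA1 (590 bp, 5.20-fold). Germ cell genes were called in 3 of 12, each with a peak shared with another gene: TDRD1 (4051 bp, 19.9-fold), MAEL (2222 bp, 16.8-fold) and SOHLH1 (835 bp, 4.97-fold). Of the defining immune genes, PTPRC, CD3E, CD4 and MS4A1 were not called.

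Neuronal genes were called in 10 of 16, a share near that of all genes, but with a median width of 2078.5 bp, and 1 of the 10, TUBB3 (5580 bp), reached 4000 bp. SLC17A7 (3257 bp), MAP2 (2956 bp) and SYT1 (2459 bp) followed, and RBFOX3 (1247 bp) and GAD1 (976 bp) came last. Developmental transcription factor genes were called in 14 of 34, with a median of 1646 bp. ISL1 (6691 bp), NEUROG2 (3469 bp), GATA6 (3457 bp) and FOXA2 (2656 bp) were widest, and HAND1 (525 bp) and NKX2-2 (507 bp) narrowest. Among those not called, PAX9 and LHX3 had a listed start under a peak, with peaks of 4708 bp (15.6-fold) and 646 bp inside the record, and PAX5 had one of 3079 bp inside. The count was 8 of 34 with peaks of −log10 q of at least 5 and 7 of 34 with peaks of fold of at least 5.

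**Figure D5:**
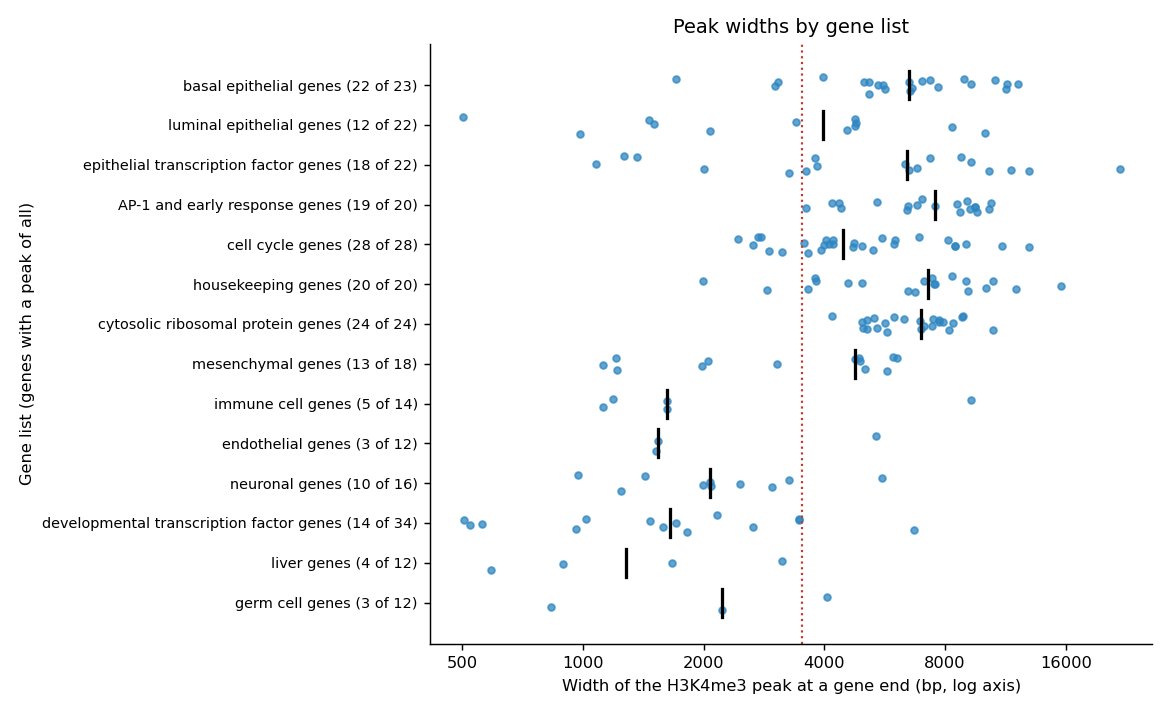
Width of the H3K4me3 peak at a gene end (bp, log axis) for each called gene of the 14 lists, 1 point per gene, with the list's median as a black bar and the median of all called protein-coding genes (3526.5 bp) as a dotted line; labels give the called genes of all. Ribosomal protein genes all lie above 4000 bp, and most developmental transcription factor genes lie below the line.

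Large stretches had no H3K4me3 peak. Of stretches of 500000 bp or more without one, 69 held a protein-coding gene, with 196 of the 19126 protein-coding genes in all. Of the 391 olfactory receptor genes in the genome part examined, 68 lay in these stretches. The longest, 4.35 Mb on chromosome 11 (50299276 to 54645872), crosses the centromere and holds OR4C46. Beside it lay 1.53 Mb (54646242 to 56173091) with 28 genes, 26 of them olfactory receptors, among them OR4A5, OR4A16, OR4A15, OR4C15 and OR4C16, together with TRIM48 and TRIM51. On chromosome 7 a stretch of 1.56 Mb (88556778 to 90118706) held ZNF804B and TEX47, and H3K27me3 peaks covered 14.2% of it. On chromosome 16 one of 1.42 Mb (25692646 to 27109635) held C16orf82, and H3K27me3 peaks covered 0.415% of it. They covered 0.120% and 0.568% of the stretches on chromosome 11, against 3.44% of the chromosome length.

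Gene density and peaks parted in a few gene-rich windows, which were picked after their values were seen. Chromosome 21 from 30 to 31 Mb has 34 protein-coding genes, 32 of them for keratin-associated proteins of hair and 2 for claudins, and held 7 peaks, none of 2000 bp. Chromosome 11 from 55 to 56 Mb has 21 genes, 19 of them olfactory receptors, and held 0 peaks. Chromosome 11 from 5 to 6 Mb has 42 genes, 30 of them olfactory receptors, and held 9 peaks. Windows with 20 or more genes had a median of 47 peaks.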

How the data were processed

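H3K4me3, H3K79me2 and H3K27me3 peak lists of 1 library each were analysed, with the study's 4 libraries grouped by antibody from the labels. Per the submitters' processing notes, Bowtie2 2.3.1, MACS2 2.1.1 and hg38 were used. Peaks were called per library, the names of the deposited peaks hold a p threshold of 0.05, and the settings for control, duplicates and multiple mapping are not given in the sources used here. As deposited by the authors, the fold of each peak is its ratio to the background estimated by the caller, and −log10 p and −log10 q are the caller's values as deposited. Start and end are deposited coordinates with no unit of measurement. Depth is unknown.

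Widths, gaps, midpoints and overlaps were computed with Python 3.11.15, numpy 2.4.6, pandas 2.3.3 and scipy 1.17.1, and the interval code was tested on simulated data. Genes came from a RefSeq table of GRCh38.p14, starts and promoters from RefSeq's promoter table. Windows of 1 Mb without a peak of any list (102) were left out. Peaks on chromosomes X and Y were left out of all comparisons.

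The members, the 14 lists (281 entries, 277 of them on chromosomes 1 to 22) and the descriptions were chosen with earlier results of these data known. Genes were named by rule: the 12 widest peaks, the widest per chromosome, up to 4 widest and 2 narrowest called genes of each list, uncalled members where 5 or fewer, the 5 densest windows, runs and peak-free stretches, and the 5 widest inside and outside peaks. A few genes and 1 stretch chosen this way are not reported here. Uncalled immune genes, peaks inside uncalled genes, gene types, tRNA genes and gene-rich windows with few peaks were described after values were seen. Alternatives covered q and fold thresholds, joining, windows, overlap and coverage rules. They changed 1 choice at a time.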

Additional observations from a re-analysis of the deposited data

Results flagged for a closer look

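Peaks outside the chromosomes analysed were present on X and Y. The H3K4me3 list holds 1988 peaks on chromosome X, with a median width of 781 bp and a median fold of 2.70, and 50.7% of them have a −log10 q of at least 1.3. It also holds 123 peaks on chromosome Y, with a median width of 454 bp and a median fold of 2.44, of which 51 have a −log10 q of at least 1.3. Both were noted because these data stand outside every comparison above, and the source of the signal on Y was not tested.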

How the results depend on the processing

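Each mark has 1 library, read depth is unknown and no error can be given. Shifts are therefore judged against binomial intervals of 95% for shares, medians and density ratios, and against a factor of 1.5 for counts and list values. The intervals treat peaks or genes of 1 library as independent, and the alternatives reuse the same data. They serve as a yardstick and measure no spread between replicates. No paired analysis was possible because each mark has 1 library. Thresholds on the caller's values changed most descriptions of the whole list, which has 65793 peaks, or 32180, 18292 and 15813 with −log10 q of at least 1.3, of at least 5, and fold of at least 5. In that order median width was 1703.5, 2739 and 2991 bp, the median gap 32869, 52962.5 and 60084 bp, the gene-end share 25.3%, 40.7% and 45.8%, and the outside share 31.7%, 20.7% and 17.1%. Joining across 1000 and 3000 bp gave widths of 877 and 980 bp and gaps of 17601 and 22326 bp, and an outside share of 39.8% at 3000 bp. Gene-end and outside shares were 8.32% and 39.1% with windows of 500 bp, 19.3% and 37.6% with 2000 bp, 19.5% and 38.1% by overlap of 1 bp, and 21.4% and 24.5% with records of all gene types. Peak density on chromosome 19 over 13 was 1.97, or 3.17 and 4.71 at −log10 q of at least 1.3 and 5, 1.84 joined across 3000 bp and 2.2995 over full spans. Windows of 20 or more genes over those of none gave 6.27, or 12.3, 31.7, 5.32 and, with 500 kb, 5.002. H3K79me2 at peaks of 4000 to 8000 bp was 83.5% at −log10 q of at least 5, 84.4% at fold of at least 5, 97.0% by overlap and 77.6% with H3K79me2 at −log10 q of at least 1.3. Under 500 bp it was 11.9%, 13.0045% and 15.7% at the 3 thresholds, 22.7% by overlap and 14.8% with the last. Starts under a peak with a CpG ratio of 0.6 or more were 86.3% by window coverage and 88.0% at −log10 q of at least 1.3, against 87.1%. Peaks reaching further downstream were 87.3% at −log10 q of at least 1.3 and 88.6% without a neighbouring gene. These last 2 and the full spans were chosen after seeing the data. Called genes ranged from 12068 to 13802, and of 196 list values 191 stayed within a factor of 1.5. The other 5 concern developmental genes (8 and 7 called, and a median of 2656 bp at fold of at least 5) and liver genes (2 called, median 2400 bp, at 50% covered). The cause of these shifts was not tested.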
